A study of Rattus norvegicus with 4 samples.

Results

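Ion channels of the voltage-gated and potassium channel families were examined in colon tissue of rats with inflammatory bowel disease (IBD) treated by mesenchymal stem cell transplantation (MSCT). The members were all genes with a row measured on all 4 arrays whose RefSeq transcript carried, by RefSeq's rat gene annotation (assembly GRCr8), a symbol starting with Kcn, Cacn, or Hcn or Scn followed by a digit, with 1 row per gene (the row with the highest mean). This gave 73 genes out of 6968 genes named among 18350 measured rows. A further 42 channel genes were on the array but lacked a value on at least 1 of the 4 arrays. Another 24 protein-coding channel genes of the gene table could not be matched to a row. Neither set was analysed here.

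Colon RNA of male Sprague Dawley rats was copied into cDNA from oligo dT primers and hybridized with the Cy3 dye to one-color NimbleGen arrays, with 2 arrays in the control group and 2 arrays in the MSCT group. In the MSCT group, colitis was induced with 2,4,6-trinitrobenzene sulfonic acid (TNBS) in ethanol given into the colon, and cultured mesenchymal stem cells (MSCs) carrying green fluorescent protein were then given through the tail vein. The control rats received no MSCs. Their sample descriptions call them normal, whereas the series text and the paper call the comparison group IBD controls, so it cannot be said whether they had colitis. The labels give no age or day, and the paper gives different days for the chips in its Methods and Results. The colon tissue was not sorted into cell types, so a lower level in a sample can come from fewer cells of a type or from less RNA per cell, which cannot be told apart here. Nothing in the labels says that the arrays of a group came from separate rats, so p-values measure only the spread between these arrays, which may be technical. Moreover, 2 arrays against 2 allow no two-sided exact permutation p below 0.333, so each p-value rests on the variance that limma shares between rows.

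Voltage-gated channels are membrane proteins whose pore opens when the membrane potential changes. Calcium channel pores let in the calcium that contracts smooth muscle and releases transmitter from nerve endings, sodium channel pores carry the rising phase of the action potential, and hyperpolarization-activated (HCN) pores carry pacemaker current. Potassium channels repolarize the cell or hold its resting potential, and in colonic crypts they set the driving force for chloride secretion and release potassium into the lumen. Most pores are joined by auxiliary subunits that change their gating or carry them to the membrane.

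Across the 73 channel genes, 11 had an unadjusted limma p under 0.05, 9 of them lower and 2 higher in the MSCT group. In all 18350 rows, 12% had such a p, 7.17% lower and 4.8% higher. The share of channel genes in either direction (15.1%) was near this background, but 12.3% were lower and 2.74% higher. Whether these shares differ from those of all rows was not tested. Among the named genes alone the shares were 5.44% lower and 6.82% higher. The lower genes included the calcium channel genes Cacna1a, Cacna1c, Cacna1e and Cacnb3, the potassium channel genes Kcnn3, Kcnk3 and Kcnmb1, and the sodium channel gene Scn11a. Cacna2d1 was among the higher genes. A screen of p under 0.05 with a change over 2-fold was passed by 4 channel genes, Kcnn3, Cacna1a and Scn11a among them, all lower (5.48% of channel genes, against 4.63% of all rows, 2.51% lower and 2.12% higher, and 4.91% of named genes, 1.78% lower and 3.13% higher). After adjustment over the whole table the smallest p of a channel gene was 0.288 (Kcnn3), and 0 channel genes and 0% of rows were below 0.05 by limma.

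**Figure D1:**
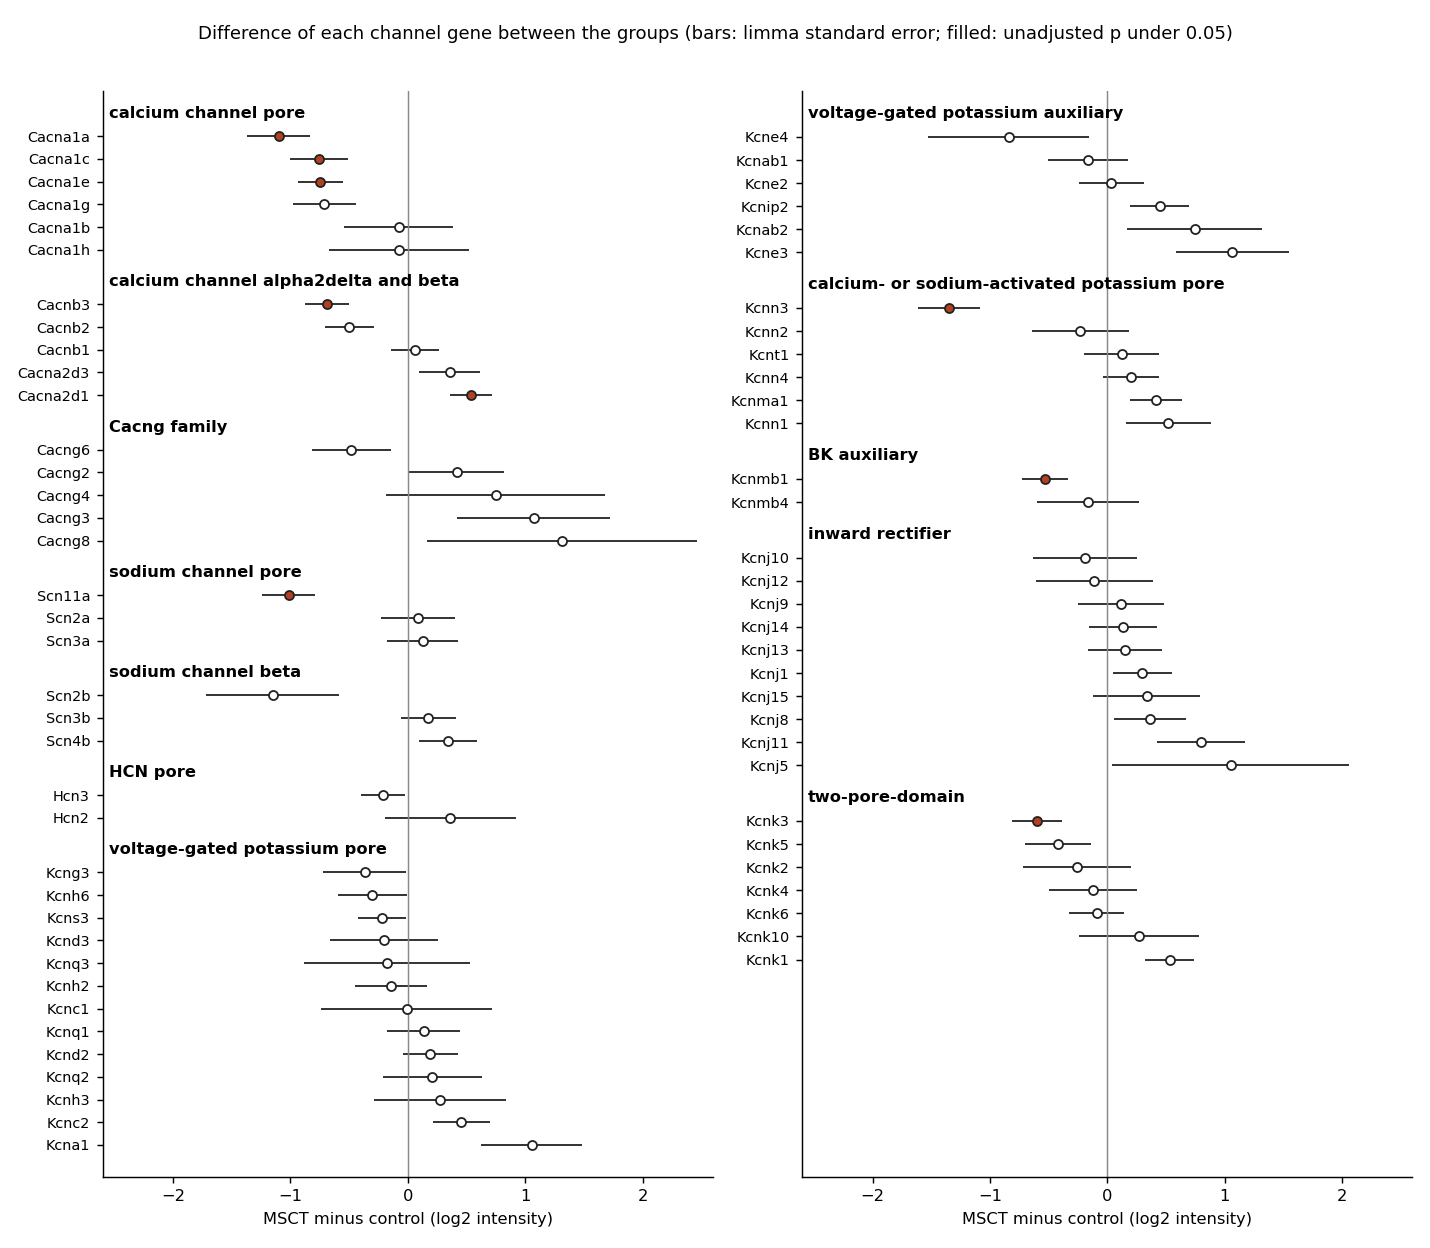
Difference of the log2 intensity between the MSCT and the control group (x axis) for 68 of the 73 channel genes, grouped by channel class, with bars for the limma standard error and filled points for an unadjusted p under 0.05. The 6 calcium channel pores all lie below 0, and the bars are longest for Cacng8 and Kcnj5.

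The median difference of the channel genes was 0.09 in log2 units, against -0.02 for all rows and 0.05 for the named genes, with 40 of 73 channel genes above 0 (54.8%, against 48% of all rows and 55.8% of named genes). A difference over 2-fold in either direction, whatever its p, was seen in 10 channel genes (13.7%, against 6.35% of all rows and 6.75% of named genes). Control and MSCT arrays were fully separated in 27 channel genes (37%, against 45.8% of all rows and 47.9% of named genes). Of these, 12 were higher (all rows 21.3%, named genes 27.6%) and 15 lower (all rows 24.5%, named genes 20.2%). Most of the channel genes gave weak signals. Their median log2 intensity was 8.04 against 9.76 for all rows, and 16 of 73 lay above the median row. Of these 16 genes, 6 had an unadjusted p under 0.05 (4 lower and 2 higher), and of the 57 dimmer genes 5 did, all lower.

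The promoters of 4 genes whose results are described below are shown, because these genes differed in direction and differ in promoter composition: Kcnn3 and Kcnmb1, both lower, hold no match to the motifs searched, while Cacnb3 (lower) and Cacna2d1 (higher) are rich in GC boxes. Each window runs 5′ to 3′ from 250 bases before to 50 bases after the annotated start (RefSeq, GRCr8), and capitals mark GGGCGG on either strand, the GC box bound by Sp1.
Kcnn3 (GRCr8 chr2:177234090-177234389, plus strand): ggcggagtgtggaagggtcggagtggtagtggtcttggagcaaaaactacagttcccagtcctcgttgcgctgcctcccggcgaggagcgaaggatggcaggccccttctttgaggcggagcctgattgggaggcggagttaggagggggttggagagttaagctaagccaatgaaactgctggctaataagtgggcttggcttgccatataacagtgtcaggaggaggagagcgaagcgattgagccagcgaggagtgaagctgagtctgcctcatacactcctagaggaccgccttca
Kcnmb1 (GRCr8 chr10:19061849-19062148, plus strand): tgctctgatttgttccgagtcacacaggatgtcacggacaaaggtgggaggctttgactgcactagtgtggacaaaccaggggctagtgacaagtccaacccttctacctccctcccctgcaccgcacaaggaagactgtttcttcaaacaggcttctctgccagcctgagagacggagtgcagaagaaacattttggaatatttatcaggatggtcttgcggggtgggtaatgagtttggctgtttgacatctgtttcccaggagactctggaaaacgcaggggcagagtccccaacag
Cacnb3 (GRCr8 chr7:131666301-131666600, plus strand): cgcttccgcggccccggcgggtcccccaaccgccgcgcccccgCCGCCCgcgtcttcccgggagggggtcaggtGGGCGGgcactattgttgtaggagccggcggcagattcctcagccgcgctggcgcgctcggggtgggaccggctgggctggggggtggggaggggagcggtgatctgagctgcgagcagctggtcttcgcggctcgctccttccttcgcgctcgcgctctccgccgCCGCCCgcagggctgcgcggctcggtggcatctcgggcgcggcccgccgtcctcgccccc
Cacna2d1 (GRCr8 chr4:20330098-20330397, minus strand): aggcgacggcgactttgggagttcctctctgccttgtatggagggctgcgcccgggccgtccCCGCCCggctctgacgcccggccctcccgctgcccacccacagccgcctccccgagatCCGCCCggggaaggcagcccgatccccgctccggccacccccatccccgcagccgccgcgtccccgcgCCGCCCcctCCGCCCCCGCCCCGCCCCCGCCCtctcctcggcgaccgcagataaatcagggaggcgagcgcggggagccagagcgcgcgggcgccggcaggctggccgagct
Such a window was found for 47 of the 73 channel genes. GGGCGG occurred in 25 of them (53.2%), against 33.1% of all 33469 windows, and their median GC content was 61.7% against 51.7%. These are unlike sets: each channel gene gave a single window, whereas all windows were not limited to a single window per gene or to measured genes. No difference between these shares was tested. The TATA box, searched as TATAAA, occurred in 3 windows (6.38%, against 14.2%). The E-box was searched in its palindromic form CACGTG, and it occurred in 2 windows (4.26%, against 6.42%). The CArG box, the motif of serum response factor, occurred in none of the 47 windows and in 1.64% of all windows. Both strands were searched, and the matches of a motif may overlap each other, as they do in Cacna2d1 (7 matches, against 3 in Cacnb3). Of the 11 genes with an unadjusted p under 0.05, 8 had a window, and the 3 that held the GC box (Cacna1a, Cacnb3 and Cacna2d1) did not share a direction. A match describes only the letters of the window.

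All 6 measured calcium channel pores were lower after MSCT, by a median log2 difference of -0.73, and 3 of them had an unadjusted p under 0.05. Over all rows, 7.17% were lower at such a p, and 48% had a difference above 0. The direction of all 6 was the same after quantile normalization and with equal array medians, but 1 pore was higher without control replicate 2 and 2 were higher without MSCT replicate 1. Cacna1a, the P/Q-type pore of nerve endings, had intensities of 1443 and 1237 in the controls against 516 and 755 after MSCT. Both MSCT arrays were below both control arrays, and the difference was -1.10 in log2 units (standard error 0.27, unadjusted p = 0.012, limma adjusted p = 0.320), a level 2.14-fold lower. Its unadjusted p was above 0.05 by the methods' t-test, a row-by-row test on the same values, and without control replicate 1 or without MSCT replicate 1. Cacna1c, the L-type pore through which calcium enters to contract smooth muscle, gave 1379.7 and 1529.8 in the controls against 1019 and 725 after MSCT. The groups did not overlap, with a difference of -0.76 in log2 units (standard error 0.25, unadjusted p = 0.0333, limma adjusted p = 0.378), and MSCT replicate 2 was the lowest array. It kept an unadjusted p under 0.05 without MSCT replicate 1 and lost it without any 1 of the other arrays and by the methods' t-test. Cacna1e, an R-type pore found mainly in neurons, gave 281 and 262 in the controls against 153 and 170.3 after MSCT, with replicates close together in both groups. Its mean lay at percentile 18.3 of all rows, and both filters of dim rows removed it. Its difference was -0.75 in log2 units (standard error 0.19, unadjusted p = 0.014, limma adjusted p = 0.324), and the unadjusted p was above 0.05 without either MSCT array and with a variance that depends on intensity. Cacna1g and Cacna1h are T-type pores that open at low voltage. Cacna1g was 407 and 373 in the controls against 194 and 291 after MSCT, without overlap, but its difference of -0.71 (standard error 0.27) had an unadjusted p of 0.0514. For Cacna1h, the MSCT arrays lay on either side of both control arrays, with 345 and 366 in the controls against 187 and 609.8 after MSCT. Its difference was -0.08 (95% interval -1.68 to 1.53), and it was 0.78 without MSCT replicate 1 and -0.93 without MSCT replicate 2. The N-type pore Cacna1b differed by -0.08 (standard error 0.47). The summed intensity of 19 enteric neuron markers was also lower after MSCT (28585 and 27727 in the controls against 16768 and 17846 after MSCT). The neuropeptide gene Gal was the brightest of these markers and weighed most in this sum. The summed intensity of 8 smooth muscle markers after MSCT lay between the control arrays, as described with the marker lists.

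The auxiliary subunits of calcium channels did not share this direction. Cacnb3, a cytosolic beta subunit that brings pores to the membrane, gave 1873 and 2121 in the controls against 1216 and 1257 after MSCT. Its replicates lay close together and the difference was -0.69 in log2 units (standard error 0.19, unadjusted p = 0.0187, limma adjusted p = 0.338). Its unadjusted p stayed under 0.05 without control replicate 1 and not without any of the other arrays. The beta subunit Cacnb2 was also lower on both MSCT arrays, with 1599.5 and 1403 in the controls against 974 and 1154 after MSCT, and its difference of -0.50 (standard error 0.21) had an unadjusted p of 0.068. Cacnb1 differed by 0.06. Cacna2d1, the extracellular alpha2delta subunit to which gabapentin binds, was higher on both MSCT arrays, with 1962 and 1899 in the controls against 2785 and 2826 after MSCT. The replicates were 0.05 apart in the controls and 0.02 apart after MSCT on the log2 scale, and the difference was 0.54 in log2 units (standard error 0.18, unadjusted p = 0.0357, limma adjusted p = 0.386). Its p was above 0.05 without any 1 of the arrays, at differences of 0.52 to 0.56. Cacna2d3 differed by 0.36 (standard error 0.26).

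Of the Cacng family, several members of which are better known as partners of AMPA-type glutamate receptors than of calcium channels, 4 of 5 were higher after MSCT, though none had an unadjusted p under 0.05. This direction rested on control replicate 1. Cacng8 gave 147 and 1396 in the controls against 805 and 1572 after MSCT, so that control replicate 1 was far below the other arrays. The difference of Cacng8 was 1.31 (standard error 1.15), and it was -0.31 without control replicate 1 and 2.94 without control replicate 2. Cacng3 gave 145 and 489 in the controls against 449 and 698 after MSCT, again lowest on control replicate 1, and its difference was 1.07 with that array and 0.19 without it. Without control replicate 1, 1 of the 5 genes was higher, and the median of the family moved from 0.75 to -0.31. Without control replicate 2, all 4 higher genes had an unadjusted p under 0.05.

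**Figure D2:**
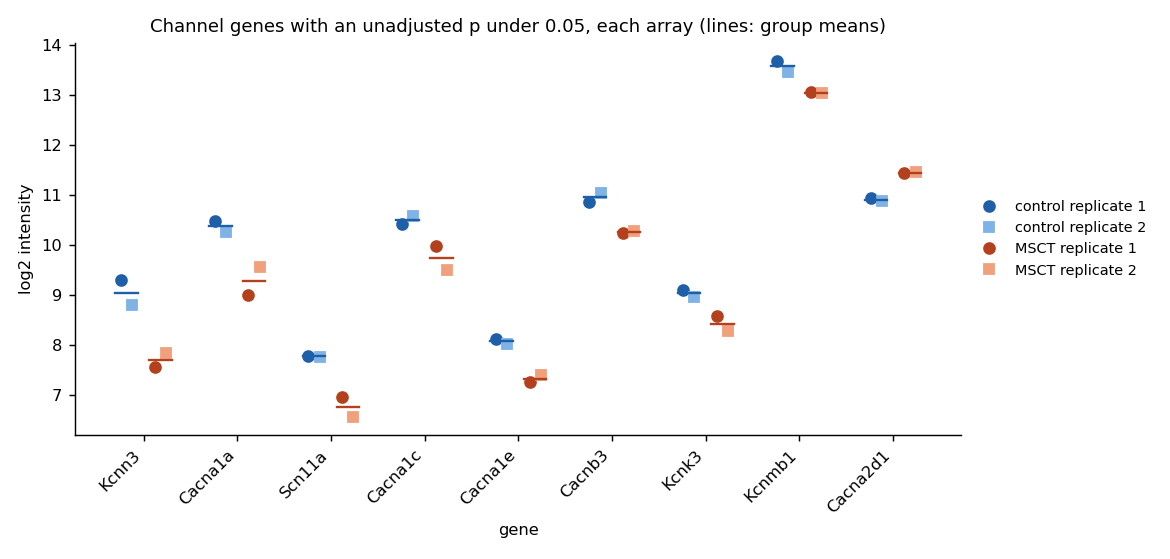
log2 intensity (y axis) on each of the 4 arrays for 9 of the 11 channel genes with an unadjusted p under 0.05, with lines for the group means (2 arrays each). The groups do not overlap in any of the genes shown, and Cacna2d1 is the one with higher MSCT arrays.

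Among sodium channel pores, Scn11a had an unadjusted p under 0.05 and was lower in the MSCT group. Scn11a, the Nav1.9 pore of sensory and enteric neurons, gave 221 and 219 in the controls against 125 and 95.05 after MSCT. These signals are weak: its mean lay at percentile 10.3 of all rows, and both filters of dim rows removed it. The control arrays were nearly equal, both MSCT arrays were lower, and the difference was -1.02 in log2 units (standard error 0.22, unadjusted p = 0.00811, limma adjusted p = 0.298). The p was above 0.05 without MSCT replicate 2 and with the intensity-dependent variance. The neuronal pores Scn2a and Scn3a differed by 0.09 and 0.13. Scn3a, near the dim end of the range, gave 88.8 and 142 in the controls against 113 and 134 after MSCT. Of the beta subunits, which act on gating and on cell adhesion, Scn2b had a difference of -1.15 (standard error 0.57), with 350.2 and 117 in the controls against 101 and 82.1 after MSCT, so that the control arrays were further apart than the MSCT arrays. Without control replicate 1 it was -0.36. Scn3b and Scn4b differed by 0.18 and 0.34.

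The HCN pores Hcn2 and Hcn3 had unadjusted p-values above 0.05. Hcn2 differed by 0.36 (95% interval -1.12 to 1.85) and Hcn3 by -0.21 (95% interval -0.71 to 0.29). The arrays of the groups overlapped for Hcn2 and not for Hcn3, which gave 748 and 753 in the controls against 679 and 620.2 after MSCT. For Hcn2, replicate 1 was the lower array in both groups, with 227 and 537 in the controls against 321 and 627 after MSCT.

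None of the 15 voltage-gated potassium channel pores had an unadjusted p under 0.05, with 8 higher and 7 lower and differences from -0.37 (Kcng3) to 1.06 (Kcna1). Kcnq1, the basolateral pore that supports chloride secretion in colonic crypts, gave 1758 and 2946 in the controls against 2379.9 and 2628 after MSCT. The MSCT arrays lay between the control arrays, and the difference was 0.14 (95% interval -0.69 to 0.97). Kcne3, the auxiliary subunit that holds Kcnq1 open in crypt cells, gave 2158 and 5385 in the controls against 6823 and 7464 after MSCT. It was above both control arrays on both MSCT arrays, at 2.09-fold, but the control arrays were far apart. The difference of Kcne3 was 1.07 (standard error 0.48, unadjusted p = 0.0833), and it was 0.41 without control replicate 1 and 1.73 without control replicate 2. Its p was under 0.05 without control replicate 2, without the dimmest 50% of rows and with the intensity-dependent variance. Kcna1, a Kv1 pore of axons, was also higher on both MSCT arrays (70.1 and 152 in the controls against 190.2 and 242 after MSCT), with a difference of 1.06 (standard error 0.43, unadjusted p = 0.0639). The difference of Kcna1 was 0.50 without control replicate 1 and 1.61 without control replicate 2, and its p was under 0.05 without control replicate 2 and after quantile normalization. Kcnh2, the ERG pore, gave 647 and 388 in the controls against 445 and 463 after MSCT. The groups overlapped for Kcnh2, with a difference of -0.14 (95% interval -0.96 to 0.68). Among the other auxiliary subunits, Kcnip2, a partner of Kv4 pores, differed by 0.45 in the row used here, and by 0.06 and -0.18 in its 2 other rows, so its rows differ in sign. Kcnab2 differed by 0.74, Kcne4 by -0.84, Kcnab1 by -0.16 and Kcne2 by 0.04, each with an unadjusted p above 0.05.

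Kcnn3 had the largest difference of the 73 channel genes. It encodes the small-conductance calcium-activated potassium channel SK3, which takes part in the inhibitory response of the gut wall to purines released from enteric nerves. Its arrays read 631 and 446 in the controls against 190.0 and 229 after MSCT, without overlap. The difference was -1.35 in log2 units (standard error 0.26, unadjusted p = 0.00508, limma adjusted p = 0.288), a level 2.54-fold lower. It was the one gene of the 9 shown by array that kept an unadjusted p under 0.05 in every alternative in which it was tested, and its difference ran from -1.60 to -1.10 on leaving out single arrays. The related pores Kcnn1 and Kcnn2 differed by 0.52 and -0.23. Kcnn2 gave 132 and 126 in the controls against 74.7 and 161 after MSCT, with the MSCT arrays on either side of the controls. Kcnn4, the intermediate-conductance pore of crypt cells, gave 4723 and 4086 in the controls against 5826 and 4395 after MSCT. The groups overlapped, and the difference was 0.20 (95% interval -0.43 to 0.84).

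The large-conductance (BK) channel showed opposite signs in its pore and its smooth muscle subunit. Kcnma1, its pore, which serves smooth muscle and colonic potassium secretion, gave 1407 and 1077 in the controls against 1617 and 1671 after MSCT. It was higher on both MSCT arrays, with a difference of 0.42 (standard error 0.22) and an unadjusted p of 0.126. Kcnmb1, the beta subunit that raises the calcium sensitivity of the BK channel in smooth muscle, gave 13268 and 11313 in the controls against 8542 and 8400.2 after MSCT. The MSCT arrays were nearly equal and below both control arrays, and the difference was -0.53 in log2 units (standard error 0.20, unadjusted p = 0.0476, limma adjusted p = 0.413). With equal array medians, or without any 1 of the arrays, Kcnmb1 had an unadjusted p above 0.05. Lrrc26, a gamma subunit of the BK channel in epithelial cells and one of the channel partners listed below, was higher on the MSCT arrays, with log2 intensities of 9.12 and 9.66 in the controls against 10.80 and 10.43 after MSCT. Its difference was 1.23 (standard error 0.28, unadjusted p = 0.00979, limma adjusted p = 0.309). Kcnmb4, a neuronal beta subunit, differed by -0.16 (standard error 0.44).

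**Figure D3:**
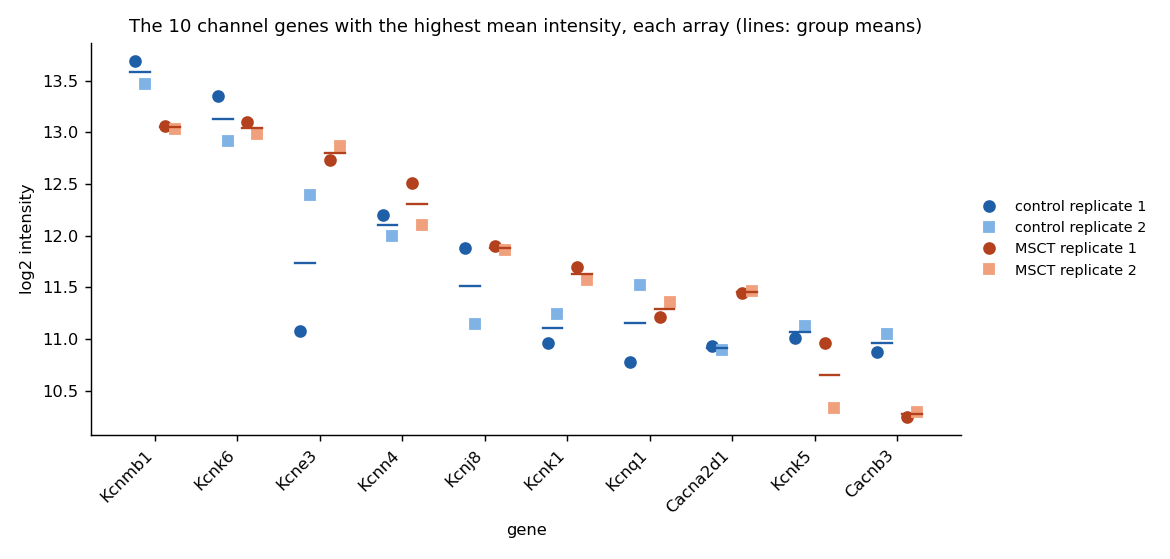
log2 intensity (y axis) on each of the 4 arrays for the 10 channel genes with the highest mean intensity, with lines for the group means (2 arrays each); heights of different genes are not comparable because their probes differ. The control arrays of Kcne3 lie 1.32 apart, whereas those of Cacna2d1 lie 0.05 apart.

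Of the 10 inward rectifiers, 8 were higher and 2 lower after MSCT, and 0 had an unadjusted p under 0.05. The count of higher genes was 5 of 10 without control replicate 2 and 10 of 10 without MSCT replicate 2, so it depended on single arrays. Kcnj8, the Kir6.1 pore of the ATP-sensitive channel in smooth muscle, gave 3785 and 2273 in the controls against 3815 and 3731 after MSCT. Control replicate 2 was below the other arrays, and the difference was 0.36 (95% interval -0.45 to 1.18). Abcc9, the sulfonylurea receptor with which Kcnj8 assembles, differed by -0.09. Kcnj11, the Kir6.2 pore, differed by 0.80 (standard error 0.37), with 64.9 and 114 in the controls against 179.9 and 125 after MSCT. Kcnj5, a G protein-gated pore, was lower on replicate 2 of both groups, with 305 and 66.0 in the controls against 585 and 148 after MSCT. Its difference of 1.05 had a standard error of 1.01.

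Of the 7 two-pore-domain potassium channels, which carry background current at rest, 5 were lower and 2 higher. Kcnk3, the acid-sensitive TASK-1 pore, gave 553 and 501 in the controls against 385 and 312 after MSCT. The groups did not overlap, and the difference was -0.60 in log2 units (standard error 0.21, unadjusted p = 0.0417, limma adjusted p = 0.400). It kept an unadjusted p under 0.05 in 4 of 12 alternatives and lost it after quantile normalization, with equal array medians, with the intensity-dependent variance, by the methods' t-test and without any 1 of the arrays. Kcnk5, the TASK-2 pore, gave 2067 and 2236 in the controls against 2002 and 1289.8 after MSCT, and its difference of -0.42 was -0.10 without MSCT replicate 2. Kcnk1 (TWIK-1) was higher on both MSCT arrays, with 1998 and 2429 in the controls against 3322 and 3046 after MSCT. Its difference was 0.53 (standard error 0.21, unadjusted p = 0.0571), and its p was under 0.05 with equal array medians, without the dimmest rows, with an intensity-dependent variance and with a pseudocount of 50. Kcnk6 (TWIK-2) gave 10441 and 7736 in the controls against 8805 and 8115 after MSCT, and its difference was -0.09 (95% interval -0.71 to 0.54). Kcnk2 (TREK-1), a stretch-sensitive pore, had 2 rows that differed. The row with the higher mean gave -0.26 (unadjusted p = 0.601), and the other gave -1.02 (standard error 0.28, unadjusted p = 0.019, limma adjusted p = 0.338).

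The control arrays were over 2-fold apart more often for channel genes than for all rows, with no test made. They differed by more than 2-fold in 20 of 73 channel genes (27.4%), against 8.73% of all rows. Below the median row the shares were 33.3% of 57 channel genes and 16.2% of rows. The MSCT arrays were this far apart in 9 channel genes (12.3%, against 7.49% of all rows). In 16 of the 20 genes control replicate 2 was the higher array, as it was in 62.2% of the rows that far apart. Cacng8 (3.25 on the log2 scale), Cacng4 (2.68), Kcnq3 (2.04) and Kcnc1 (1.97) were among the genes with the largest gaps in this direction, and Kcnj5 (-2.21) the largest in the other. Kcnc1 is a pore of fast-firing neurons and Kcnq3 carries the neuronal M current. Across the 73 channel genes, which are not independent replicates and differ in level, Pearson's r of log2 intensity was 0.839 between the control arrays, 0.935 between the MSCT arrays and 0.948 between control replicate 2 and MSCT replicate 2. Over all rows these values were 0.953, 0.964 and 0.959.

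**Figure D4:**
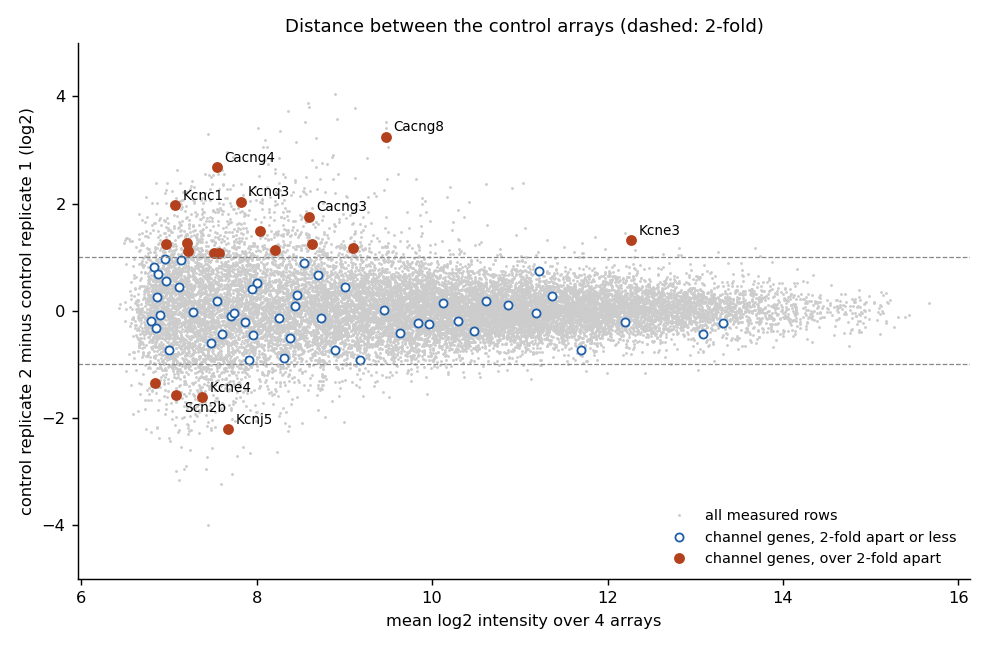
Difference between the control arrays (control replicate 2 minus replicate 1, log2, y axis) against the mean log2 intensity of the 4 arrays (x axis) for all 18350 measured rows (gray) and 68 of the 73 channel genes (circles, filled where over 2-fold apart). Of 19 filled points, 15 lie above 0, and Kcne3 is the one filled point above the median row.

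To check the tissue, marker lists of 7 cell types were used, of which 8 of 15 smooth muscle and 14 of 18 colonic epithelium markers were measured. The other listed markers lacked a value on at least 1 array or had no row by name, so no level is given for them. Markers of enteric neurons were lower in the MSCT group together with the calcium channel pores. Of 19 measured neuronal markers (24 listed), 16 were lower and 8 of these had an unadjusted p under 0.05. Their median difference was -0.56 (15 lower after quantile normalization). Over all rows, 7.17% were lower and 4.8% higher at such a p, and 48% had a difference above 0. The count of 8 was 2 without control replicate 1, 2 without MSCT replicate 1, 4 without MSCT replicate 2 and 4 by the methods' t-test. The summed intensity of the neuronal markers was 28585 and 27727 in the controls against 16768 and 17846 after MSCT. Gal, the brightest of them, weighed most in this sum, with log2 intensities of 13.07 and 13.24 in the controls against 12.06 and 12.10 after MSCT. The neuropeptide gene Gal differed by -1.08 (standard error 0.19), Elavl4, an RNA-binding protein of neurons, by -1.06 (standard error 0.33), and Stmn2, a regulator of axonal microtubules, by -0.999 (standard error 0.23). The smooth muscle markers had a median difference of 0.02, with 6 of 8 higher (3 of 8 after quantile normalization) and none with an unadjusted p under 0.05. Their summed intensity was 213712 and 179333 in the controls against 195186 and 194534 after MSCT. This sum lay within the range of the control arrays on both MSCT arrays, on which Cacna1c and Kcnmb1 were lower. Markers of colonic epithelium had a median difference of 0.23 (11 of 14 higher, 1 with an unadjusted p under 0.05), and their sum was 231791 and 236594 in the controls against 268302 and 259695 after MSCT. Leukocyte markers were higher (8 of 8, 5 with an unadjusted p under 0.05, median 0.99), with a sum of 4423 and 4792 in the controls against 9006 and 10137 after MSCT. Among them, Cd3g, Cd4 and Cd8a differed by 0.13, 0.37 and 0.006, each with an unadjusted limma p above 0.05. The count of 8 higher markers was 7 without control replicate 2 and without either MSCT replicate. Enteric glia (5 markers, median -0.29) and endothelium (4 markers, median 0.17) had no marker with an unadjusted p under 0.05. Of the list for interstitial cells of Cajal, the pacemaker cells of the gut, 2 of 5 were measured, Kit (0.18) and Gja1 (0.73, unadjusted p = 0.0165, limma adjusted p = 0.330), a gap junction gene that other cells of the wall also express. The part of these cell types in the differences of the channel genes was not tested.

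**Figure D5:**
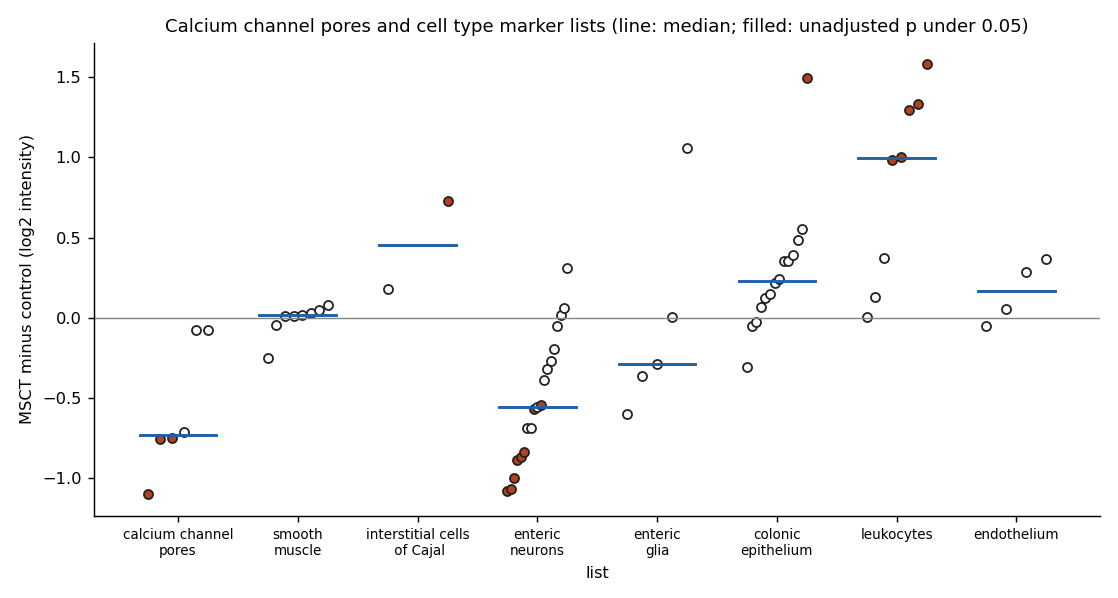
Difference of the log2 intensity between the MSCT and the control group (y axis) for each measured gene of the calcium channel pores and of the marker lists of 7 cell types (x axis), with lines for medians and filled points for an unadjusted p under 0.05. Calcium channel pores (median -0.73) and neuronal markers (median -0.56) lie mostly below 0, smooth muscle markers around 0 and leukocyte markers above 0.

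Genes whose products bind channels or handle calcium had medians near 0. Of 22 measured channel partners (34 listed), 7 were higher and 15 lower (10 and 12 after quantile normalization), with a median of -0.07, and Lrrc26 (higher) and Cav3 (lower) had an unadjusted p under 0.05. Cav3, a caveolar scaffold of muscle membranes, differed by -0.95 (standard error 0.28). Of 21 measured genes of calcium handling (39 listed), 13 were higher and 8 lower, with a median of 0.02. The calcium pump Atp2b4 was the one with an unadjusted p under 0.05, at -0.64 (standard error 0.20, limma adjusted p = 0.354).

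Channel genes that had no row with values on all 4 arrays, and for which no level is given, include Kcna5, Kcnj2, Hcn4, Scn9a and Scn10a. The genes Kcnq5 and Cacna1d could not be matched to a row and are not analysed here.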

How the data were processed

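Colon RNA was measured on 4 one-color NimbleGen arrays, scanned with a GenePix scanner and extracted with NimbleScan. The authors deposited 1 linear intensity per RefSeq transcript and array. The submitters' processing notes name RMA, and how the values were scaled is not given in the sources used here. Of 26420 rows, 8070 lacked a value on at least 1 array, by a rule that is not given either.

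The log2 of each intensity was used as it stood, unscaled, unfiltered and without a pseudocount. With lmFit and eBayes at default settings, limma (version 3.58.1, R version 4.3.3) compared MSCT with control over all 18350 measured rows, with Benjamini-Hochberg adjustment over these rows. Arrays were grouped by their titles. Row accessions, without version numbers, were matched to symbols in RefSeq's GRCr8 annotation (7068 measured rows, 38.5%). Rows lacking a value on any array were left out. Some channel genes entered every fit and count but are not reported here by name. The number of arrays, 2 a group, limits precision.

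Named with values per array were channel genes with an unadjusted p under 0.05, the 10 with the highest mean intensity, the 5 largest differences in each direction, and a list of genes known from colonic secretion, smooth muscle and enteric neurons. Cacna2d3, Cacnb1, Kcnn1 and other members given by 1 difference, Abcc9, Kit, Kcnj11 and the genes with the largest gap between the control arrays were picked with their values in view. The members and gene lists were chosen with earlier results of these data known. The fit was tested on simulated data (18350 rows, 200 of them changed by 3 on the log2 scale). In these data 97.7% of changed rows were recovered by the screen and 1.46% of unchanged rows passed it. The planted changes exceeded every difference of a channel gene (largest in size -1.35, Kcnn3), so this recovery does not apply to changes of their size. Each simulated row was drawn independently, without any deviation shared between the rows of an array. The 1.46% is therefore not an error rate for the real arrays. The alternatives comprised scaling to equal medians, quantile normalization, filters that removed the dimmest 25% or 50% of rows, an intensity-dependent robust variance, the methods' t-test (the paper's one-way analysis of variance, for 2 groups), the replicate number as a block, each array left out, the mean of all rows of a gene, and a pseudocount of 50. Names and promoter windows were handled in pandas 2.3.3 (Python 3.11.15) and figures drawn in matplotlib 3.10.9.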

Additional observations from a re-analysis of the deposited data

How the results depend on the processing

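The counts of channel genes changed with several choices. With the replicate number as a block, which the labels give without saying that a number marks a shared litter, batch or day, 5 genes were higher and 10 lower at an unadjusted p under 0.05 (all rows 5.96% and 8.68%) and 9 passed the screen (all rows 5.29%). The block ended the calls of Cacna2d1 and Kcnmb1, and those it added included Cacng3, Kcna1, Kcnab2, Kcne3, Kcnj5, Kcne4 and Scn2b. Replicates with the same number deviated from their group means with a correlation of 0.234 over all rows. Without the dimmest 25% of rows 2 of 36 channel genes passed the screen (all rows 4.28%). Without the dimmest 50%, 4 of 16 were higher and 5 lower (all rows 9.19% and 9.71%), and 2 passed the screen (all rows 2.74%). With an intensity-dependent variance 4 genes were higher (all rows 6.89%), and with the methods' t-test 5 were lower (all rows 5.26%) and 2 passed the screen (all rows 2.11%). On leaving out single arrays, the count of higher genes ran from 0 (without either MSCT replicate) to 12 (without control replicate 2, all rows 7.77%), that of lower genes from 3 (without MSCT replicate 1) to 6, and that of the screen from 3 to 11 (without control replicate 2, all rows 8.53%), while the median difference ran from -0.12 (without control replicate 1) to 0.09. No alternative gave a channel gene with an adjusted p under 0.05 whether by limma or the methods' t-test, and the smallest was 0.0571, for Cacna1a without the dimmest 50% of rows. Over all rows, an adjusted p under 0.05 was reached by 387 rows (2.11%) with the intensity-dependent variance, by 247 (2.69%) without the dimmest 50% and by 4 without the dimmest 25%. Of the 9 genes named with an unadjusted p under 0.05, none changed direction in any alternative. The groups did not overlap in these 9 genes, so leaving out a single array could not turn their sign. Leaving out single arrays turned the sign of 39 of the 73 channel genes (53.4%, against 41.3% of all rows). Kcnq3 was -1.19 if control replicate 1 was omitted and 0.84 if control replicate 2 was, with an unadjusted p under 0.05 both times. Kcnc1 ran from -0.99 to 0.98, Cacng4 from -0.59 to 2.09 and Kcnmb4 from -0.70 to 0.37. Of the genes chosen by the rule for named genes, differences ran from -0.31 (without control replicate 1) to 2.94 for Cacng8, from -0.26 (without control replicate 1; -0.12 without MSCT replicate 2) to 0.98 for Hcn2, from -0.21 (without control replicate 1) to 0.47 for Scn3a, from -0.30 to 0.13 (without control replicate 1) for Kcnk6, from -0.51 to 0.23 (without control replicate 1) for Kcnh2, from -0.24 (without control replicate 1) to 0.51 for Kcnq1, from -0.051 (without control replicate 2) to 2.16 for Kcnj5, from -0.0049 (without control replicate 2) to 0.73 for Kcnj8, from -0.93 to 0.78 (without MSCT replicate 1) for Cacna1h and from -0.79 to 0.32 (without MSCT replicate 1) for Kcnn2. The cause of these changes was not tested. The 57 channel genes below the median row had a median standard error of 0.37 on the log2 scale, against 0.23 for the 16 above it, which limits what 2 arrays per group can show for them.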
